A study of Mus musculus with 12 samples.

Results

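The cytosolic ribosomal protein genes encode the protein subunits of the ribosomes that translate nuclear messages in the cytoplasm. They were taken as the protein-coding genes of the GENCODE mouse annotation with a name of the form Rps or Rpl and a number, with an optional suffix such as a, l or x, or one of the names Rplp0, Rplp1, Rplp2 and Rpsa, provided that the mean count was at least 10. The rule found 81 genes among the 21532 genes of the count table, of which 16108 were protein coding. There were 32 genes of the small subunit, including Rpsa, and 49 of the large subunit, including the 3 stalk genes. A further 2 matching names, Rpl10l and Rpl39l, were not analysed here. All 81 genes passed the filter on low counts that left 18382 genes for testing. The rule itself uses names and the mean count, not a difference between groups. It was, however, set with earlier results of these data known.

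RNA was sequenced from the hippocampus of 12 wild-type C57BL/6 mice, each giving 1 library. The mice had been injected intraperitoneally with stigmasterol, a plant sterol, or with vehicle, and the tissue was taken 1 h or 6 h later, which made 4 groups of 3 mice. The labels do not settle the compound: for every mouse, those given vehicle included, beta-sitosterol stands in the treatment field (100 mg/kg), whereas the agent and the descriptions name stigmasterol, the word used here. Age, sex, hour of injection, composition of the vehicle and library strandedness were not given in the sources used here.

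A eukaryotic ribosome joins a small subunit, which decodes the message, to a large subunit, which forms peptide bonds, and each subunit holds one copy of most of its proteins. Messages for ribosomal proteins typically begin with a C followed by a run of pyrimidines, the 5′ terminal oligopyrimidine (TOP) motif, through which the mTORC1 pathway and the RNA-binding protein LARP1 control their translation. In neurons these messages are found in axons and dendrites as well as in the cell body, and RNA sequencing of whole tissue measures message abundance, not translation.

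The TOP motif lies at the point where transcription starts, so the bases around the annotated start are shown for genes that the results turn on. RefSeq (GRCm38.p6) gave promoter windows for 61 of the 81 genes. A run was counted where a C within 5 bases of the annotated start was followed by at least 4 pyrimidines, read on the strand of the gene. Below, 15 bases before and 15 bases after the start are given, 5′ to 3′, with such a run in capitals. The first 3 are genes with higher fitted values after stigmasterol than after vehicle that carry a run. The next 2 are genes with higher fitted values that carry none, and the last 4 set paralogs side by side. Rplp1 was not among the 61 genes with a window.
Rplp2 (chr7:141447636-141447665, plus strand): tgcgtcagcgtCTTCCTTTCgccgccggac
Rps10 (chr17:27635230-27635259, minus strand): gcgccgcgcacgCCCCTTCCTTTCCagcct
Rps6 (chr4:86857353-86857382, minus strand): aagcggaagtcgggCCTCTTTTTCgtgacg
Rps16 (chr7:28350674-28350703, plus strand): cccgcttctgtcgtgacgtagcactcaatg
Rpl27 (chr11:101442230-101442259, plus strand): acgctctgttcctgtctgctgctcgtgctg
Rps27 (chr3:90213634-90213663, minus strand): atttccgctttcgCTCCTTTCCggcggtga
Rps27l (chr9:66946071-66946100, plus strand): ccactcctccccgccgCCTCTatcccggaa
Rpl22 (chr4:152325711-152325740, plus strand): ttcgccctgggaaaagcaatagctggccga
Rpl22l1 (chr3:28805493-28805522, plus strand): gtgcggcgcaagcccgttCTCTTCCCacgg
The run was present in 28 of 61 promoters of ribosomal protein genes (45.9%) and in 4989 of 27025 promoters of all genes (18.5%). It was present in 8 of 15 promoters of other genes known for TOP messages, such as elongation factors (53.3%), and in 15 of 69 promoters of mitochondrial ribosomal protein genes (21.7%). The annotated start can lie some bases away from the start used in the tissue, and a missing run says only that these letters are not in this window.

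For Rplp2 and Rps10, the 2 genes whose 6 stigmasterol libraries all lay above all 6 vehicle libraries, the 265 bases from 250 before the annotated start to 15 after it are given as well. Capitals mark the run at the start and the letters CCGGAAG, the core of sites for Ets factors such as GABP, searched on both strands.
Rplp2 (chr7:141447401-141447665, plus strand): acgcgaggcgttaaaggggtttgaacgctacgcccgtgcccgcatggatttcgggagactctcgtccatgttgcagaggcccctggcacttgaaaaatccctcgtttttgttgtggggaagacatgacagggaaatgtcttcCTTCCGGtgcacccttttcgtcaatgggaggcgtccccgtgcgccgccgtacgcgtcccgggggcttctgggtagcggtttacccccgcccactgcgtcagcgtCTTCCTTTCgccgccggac
Rps10 (chr17:27635230-27635494, minus strand): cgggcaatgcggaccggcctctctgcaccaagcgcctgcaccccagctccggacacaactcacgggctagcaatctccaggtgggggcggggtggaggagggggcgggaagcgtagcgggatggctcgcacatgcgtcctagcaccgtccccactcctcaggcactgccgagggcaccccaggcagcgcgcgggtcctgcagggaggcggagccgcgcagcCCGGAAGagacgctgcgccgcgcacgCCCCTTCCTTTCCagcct
In Rplp2 the Ets core lay on the opposite strand and began 108 bases before the start, and in Rps10 it lay on the same strand and began 29 bases before it. The core was found in 24 of the 61 windows of 300 bases (39.3%) against 9.12% of all promoters of that length, and AAGATGGC, a core of YY1 sites, in 5 (8.20%) against 2.88%. These matches are descriptions of the letters, and no binding was measured.

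Ribosomal protein genes took between 0.319% of all counts (95% Wilson interval 0.317 to 0.322, vehicle replicate 21 at 6 h) and 0.396% (0.394 to 0.398, vehicle replicate 4 at 1 h). The intervals cover counting error only. Their levels, as CPM (counts scaled to the TMM-adjusted library total) and per kilobase (kb) of exon, spanned a wide range, with a median of 10.1 CPM per kb over the 81 genes. The 5 highest were Rplp1 at 354 CPM per kb, Rps15 at 312, Rpl4 at 208, Rpl8 at 155 and Rps21 at 120. Per kb of the main transcript instead of all exons, Rps15 was the highest at 394 CPM per kb, above Rplp1 at 354, and Rps21 stood at 246. By all exons, the 5 lowest were Rpl3l at 0.197 CPM per kb, Rpl23a at 0.722, Rps23 at 0.757, Rpl24 at 0.810 and Rps6 at 1.20. Rpl3l is a paralog of Rpl3 known from heart and skeletal muscle, and its mean count was 10.8, just above the minimum of the rule. Rps6, a small subunit protein phosphorylated by S6 kinases downstream of mTORC1, had a mean count of 65.4.

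These levels are those that the counting could assign. The mouse genome holds many processed copies of ribosomal protein genes, and reads that match a gene and its copy can be lost or split. Of the 50-base windows of the main transcript of each gene, a median of 53.6% were also found in the transcript of another gene. At least 50% of the windows were shared in 46 of the 81 genes, and in Rpl3l none was. For Rps27, a small subunit gene with 1.26 CPM per kb, 98.7% of windows were shared, whereas its paralog Rps27l shared 22.4% and stood at 6.89 CPM per kb. Across the 81 genes, Spearman's rho between level per kb and the shared percentage was -0.46, given as a description, since all genes come from the same 12 libraries. Relative levels between ribosomal protein genes are uncertain wherever windows are shared. Of 292 pseudogenes named after these genes in GENCODE, 52 were in the table, and their counts together came to between 0.517% and 0.6% of those of the ribosomal protein genes.

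**Figure D1:**
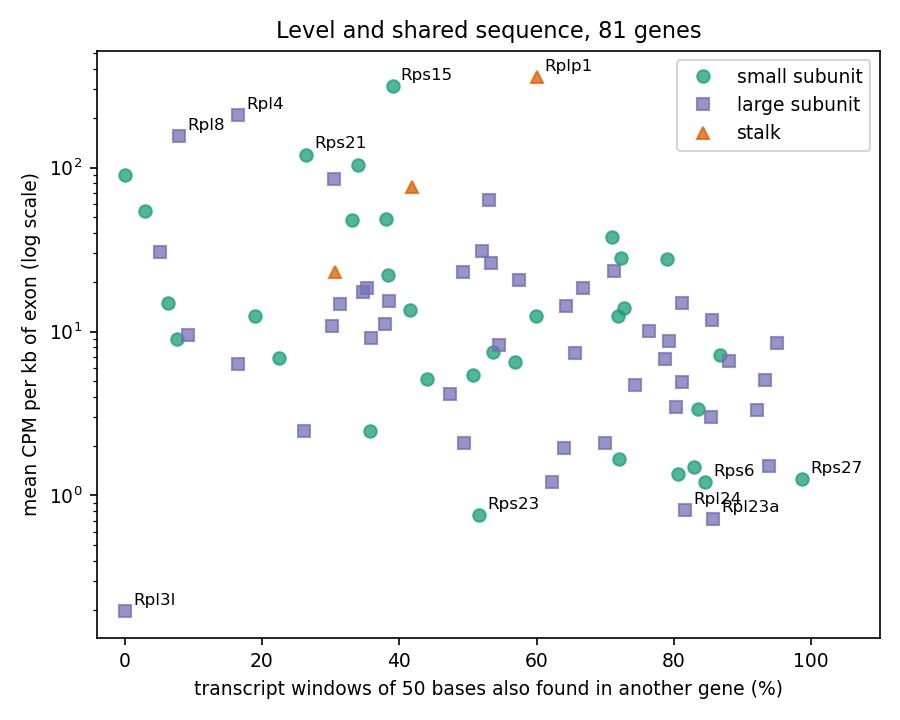
Mean level over 12 libraries (CPM per kb of exon, log scale) of each ribosomal protein gene against the percentage of its 50-base transcript windows also found in another gene. Each point is 1 gene, coloured by subunit, and the highest level, Rplp1 at 354 CPM per kb, and the lowest, Rpl3l at 0.197, span the axis.

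The exons of some genes overlap other genes. On the opposite strand at least 20% of exon bases were overlapped in 5 genes, with Rpl35 (66.2%, by Wdr38) and Rpl23a (59.7%, by Tlcd1) at the top, and without known strandedness the reads of such pairs cannot be told apart. On the same strand, 20.6% of the exon bases of Rps10 lay in the read-through gene RPS10-NUDT3, 29.4% of those of Rpl13a in Gm45713 and 47.0% of those of Rpl24 in Gm28037. The paralog pairs differed in level by an amount that depended on the length used. Rpl22, a large subunit protein, stood at 30.7 CPM per kb of all exons and Rpl22l1 at 7.40, Rpl7 at 26.3 and Rpl7l1 at 9.57, and Rpl3 at 11.7 against 0.197 for Rpl3l. Per kb of the main transcript, Rpl22 stood at 43.5 CPM per kb and Rpl22l1 at 26.7, and Rpl7 at 60.7 and Rpl7l1 at 12.8. Other well-known members were Rpsa, the small subunit protein also described as a laminin receptor, at 5.17 CPM per kb of all exons, Rps27a, made as a fusion with ubiquitin, at 1.67, the X-linked Rps4x at 28.2 and Rpl10 at 3.34, and the very small Rpl41 at 63.6.

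The first comparison asked whether ribosomal protein messages differed 1 h after stigmasterol. No ribosomal protein gene passed the test at an adjusted p of 0.05 in edgeR's quasi-likelihood test, where 0% of the 18382 genes passed. Of the 81 genes, 59 had a fitted log2 fold change above 0 and 22 below, against 49.6% of all genes above 0. Their median log2 fold change was 0.07, and that of all genes was -0.0013. At an unadjusted p below 0.05, 8 ribosomal protein genes were higher, against 4.97% of all genes, and 0 were lower, against 2.55%. The 3 stigmasterol libraries lay above the 3 vehicle libraries in 11 genes (8.23% of all genes) and below them in 1 (7.56% of all genes).

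The stalk proteins Rplp1 and Rplp2 bind the large subunit through Rplp0 and recruit translation factors. Rplp2 stood at 52.9, 53.1 and 61.5 CPM in the stigmasterol libraries at 1 h and at 38.8, 36.9 and 43.8 CPM in the vehicle libraries. Every stigmasterol library lay above every vehicle library, and the log2 fold change was 0.49 ± 0.10 (SE, n = 3 per group, adjusted p = 0.441 by edgeR's quasi-likelihood test). Its unadjusted p ranked at position 7 among the 18382 genes. Rplp1 stood at 185, 183 and 224 CPM after stigmasterol and at 154, 144 and 165 CPM after vehicle. These did not overlap either, and the log2 fold change was 0.36 ± 0.12 (SE, edgeR adjusted p = 0.649). Rplp0 stood at 122, 126 and 147 CPM against 127, 111 and 120 CPM, with overlapping groups and a log2 fold change of 0.14 ± 0.09 (SE, edgeR adjusted p = 0.708).

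Among small subunit genes, the lowest p belonged to Rps16, whose protein lies near the decoding centre. Rps16 stood at 19.8, 21.9 and 20.9 CPM after stigmasterol and at 14.1, 13.03 and 15.9 CPM after vehicle. The groups were apart, and the log2 fold change was 0.54 ± 0.12 (SE, edgeR adjusted p = 0.441). Rps6 stood at 1.94, 2.81 and 2.61 CPM after stigmasterol and at 1.246, 1.66 and 1.16 CPM after vehicle. This was the largest fitted difference of the 81 genes at 1 h, 0.86 ± 0.20 on the log2 scale (SE, edgeR adjusted p = 0.555), in one of the genes with the fewest counts and with 84.6% of its windows shared. Rps10 stood at 15.1, 16.1 and 19.6 CPM against 13.2, 12.7 and 13.3 CPM. All 3 stigmasterol libraries were above the vehicle libraries, with a log2 fold change of 0.38 ± 0.14 (SE, edgeR adjusted p = 0.649). In the large subunit outside the stalk, Rpl27 stood at 3.34, 3.69 and 3.44 CPM against 2.12, 2.71 and 2.74 CPM, also apart, with a log2 fold change of 0.47 ± 0.19 (SE, edgeR adjusted p = 0.655).

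**Figure D2:**
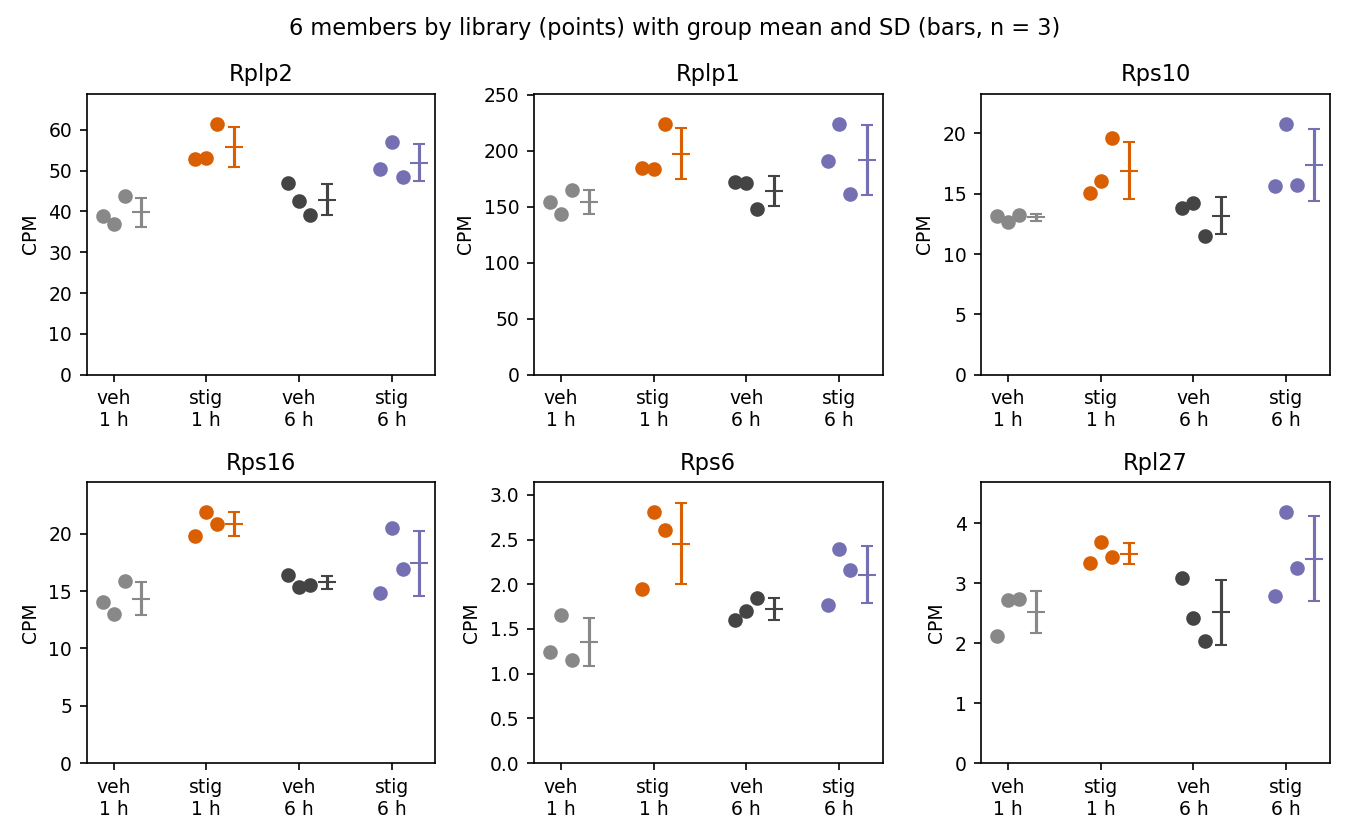
Level in CPM (TMM-scaled) of 6 ribosomal protein genes in each of the 12 libraries, by group, with the group mean and SD (n = 3) beside the points. Rplp2 and Rps10 show all 6 stigmasterol libraries above all 6 vehicle libraries, whereas Rps16 and Rps6 are apart at 1 h and overlap at 6 h.

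By subunit, 24 of 32 small subunit genes and 35 of 49 large subunit genes were above 0 at 1 h, with median log2 fold changes of 0.09 and 0.07. The most stable genes over the 12 libraries were Rpl4 (SD of log2 CPM 0.0729), Rps4x (0.0830) and Rpl6 (0.0833), and their log2 fold changes at 1 h were -0.01 ± 0.07, -0.11 ± 0.07 and 0.04 ± 0.08 (SE). The most variable were Rps6 (SD 0.305), Rpl39 (0.301) and Rpl15 (0.299). Rpl15 stood at 29.3, 32.0 and 20.7 CPM after stigmasterol and at 33.2, 29.2 and 28.9 CPM after vehicle, and stigmasterol replicate 8 was the lowest of the 6.

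The median at 1 h depended on single vehicle libraries. It was 0.13 without vehicle replicate 4, with 74 of 81 genes above 0, 0.02 without replicate 5, with 49 above 0, and 0.05 without replicate 9, with 54 above 0. The stigmasterol libraries at 1 h were also deeper than the vehicle libraries, with totals of 38117958 to 42043875 against 28676812 to 33217636 counts.

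Trends with GC content and markers of other cell types also differed between the libraries at 1 h. The slope of expression on GC content was above 0 in stigmasterol replicate 8 and below 0 in the other libraries at 1 h. Across the 81 genes, Spearman's rho between the log2 fold change and exon GC content was 0.38 at 1 h, and over all genes with a GC value it was 0.41. Of the 41 ribosomal protein genes with GC content at or above their median, 35 had values above 0 at 1 h (median 0.12), and of the 40 below it 24 did (median 0.03, both as log2 fold changes). After each library's trends with GC content and exon length were removed, the median of the 81 genes at 1 h was 0.0015 on the log2 scale and 42 were above 0, against 41% of all genes, whose median was then -0.03. Rplp2 had a log2 fold change of 0.38, Rps16 of 0.47 and Rps6 of 0.77 after that removal, while Rplp1 stood at 0.19 and Rps10 at 0.17. None passed an adjusted p of 0.05 by limma, which gave the tests on these corrected values.

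**Figure D3:**
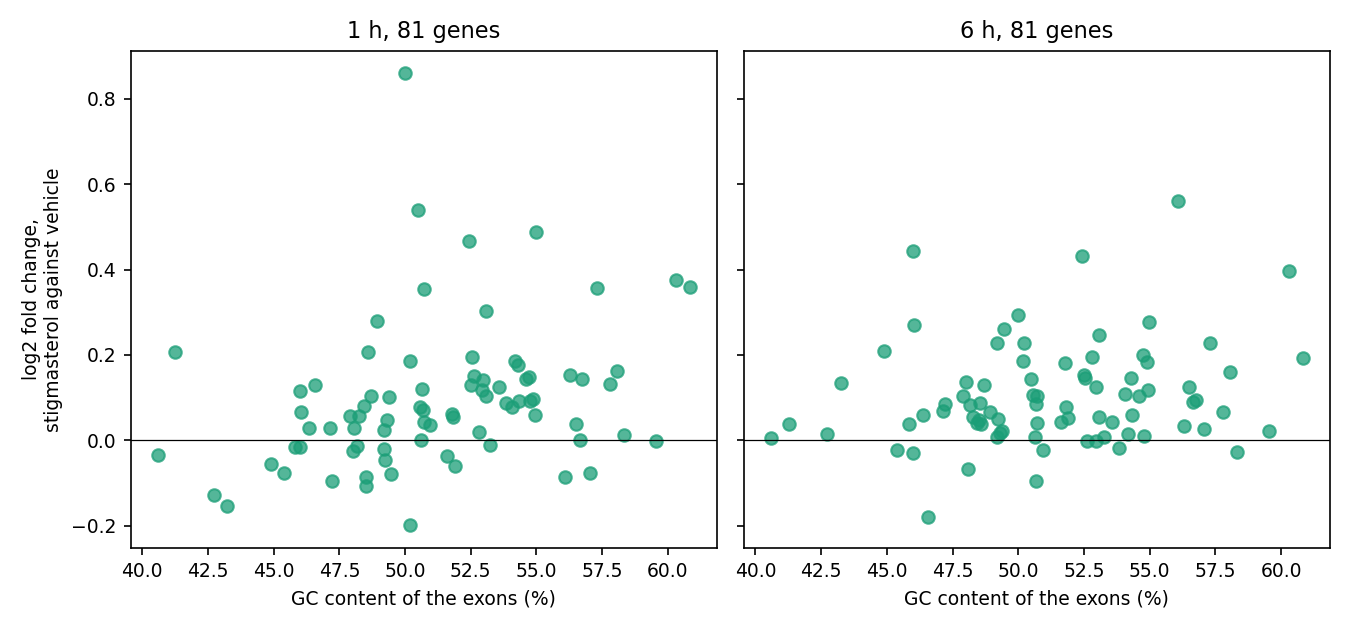
Log2 fold change of stigmasterol against vehicle at 1 h (left) and 6 h (right) for each of 81 ribosomal protein genes against the GC content of its exons in percent. Genes of higher GC content lie higher at 1 h, with a Spearman's rho of 0.38, and less so at 6 h, with 0.18.

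Markers of hippocampal neurons were present in all libraries, with summed levels of 2034 to 2631 CPM for 10 pyramidal cell genes and 856 to 1238 CPM for 11 dentate granule cell genes. Choroid plexus markers varied most. At 1 h all 15 had a log2 fold change above 0, and their summed level was 3044 to 7228 CPM after stigmasterol and 228 to 4416 CPM after vehicle. All 15 oligodendrocyte markers were above 0 as well, with summed levels of 10130 to 16640 CPM against 7762 to 10110 CPM. The plexus and oligodendrocyte lists share the gene Enpp2, so they are not fully separate. The 13 meningeal markers were all above 0, with sums of 226 to 446 CPM against 181 to 205 CPM, as were the 11 ependymal markers, with 59.5 to 83.6 CPM against 42.4 to 58.2 CPM. All 12 striatal markers were above 0 too, but their sums in stigmasterol replicates 1, 11 and 8 were 331, 316 and 688 CPM against 302 to 349 CPM. Only stigmasterol replicate 8 lay above the vehicle range, and it also held the highest oligodendrocyte sum. Of the 11 dentate granule markers 10 were below 0, with sums of 856 to 1068 CPM against 1014 to 1238 CPM. No tested marker of these lists was at 0 counts in any library. With plexus content as a covariate the median of the ribosomal protein genes at 1 h was 0.15 with 74 genes above 0; the part of oligodendrocytes and of the other cell types in the result was not tested. In whole tissue, fewer cells of a type and less RNA per cell cannot be told apart.

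At 6 h again no ribosomal protein gene passed the edgeR test at an adjusted p of 0.05, where 0% of all genes passed. Of the 81 genes, 71 had a log2 fold change above 0 and 10 below, against 50% of all genes above 0. Their median log2 fold change was 0.08 and that of all genes 8.5e-05. At an unadjusted p below 0.05, 3 were higher (1.64% of all genes), namely Rps10, Rplp2 and Rpl27, and 0 were lower (2.46%). The libraries of both groups were apart in 3 genes, Rpl4, Rplp2 and Rps10, all higher after stigmasterol, a share near the 3.47% of all genes, and in 0 that were lower (4.75%).

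Rps10 stood at 15.6, 20.8 and 15.7 CPM in the stigmasterol libraries at 6 h and at 13.8, 14.3 and 11.5 CPM in the vehicle libraries. The groups did not overlap, stigmasterol replicate 22 was the highest, and the log2 fold change was 0.40 ± 0.14 (SE, n = 3 per group, edgeR adjusted p = 1.00). Rplp2 stood at 50.5, 57.1 and 48.4 CPM against 46.9, 42.6 and 39.2 CPM, with a log2 fold change of 0.28 ± 0.10 (SE). Its groups were apart by a narrow gap, between stigmasterol replicate 23 and vehicle replicate 12. Rpl4, a core large subunit protein, stood at 410, 413 and 424 CPM against 397, 387 and 394 CPM, a small difference of 0.08 ± 0.07 on the log2 scale (SE, edgeR adjusted p = 1.00). Rpl27 (0.43 ± 0.19), Rplp1 (0.23 ± 0.12), Rpl8 (0.16 ± 0.09) and Rpl26 (0.19 ± 0.11, log2 fold change with SE) were the other genes with the smallest p, and their groups overlapped.

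The count at 6 h also leaned on single libraries. Without vehicle replicate 21 the median was 0.04 with 53 genes above 0, without stigmasterol replicate 22 it was 0.05 with 57 above 0, and without vehicle replicate 12 it was 0.15 with 72 above 0. With either vehicle replicate 21 or stigmasterol replicate 22 left out, 0 ribosomal protein genes were higher at an unadjusted p below 0.05, where 1.57% and 1.88% of all genes were, and without vehicle replicate 12 there were 9, against 1.94% of all genes. After removal of the GC content and length trends the median was 0.04 and 59 of 81 genes were above 0, against 50.8% of all genes, and averaged over times 53 were, against 45.1%. Plexus markers were on the other side at 6 h, with 0 of 15 above 0, while 14 of 15 oligodendrocyte markers were above 0.

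The animals at 1 h and 6 h were different mice with different controls. Of the 81 genes, 51 were above 0 at both times (63.0%, against 29.9% of all genes tested) and 2 were below 0 at both (2.47%, against 30.3%). Averaged over both times, 68 genes were above 0 and 13 below, against 50.2% of all genes above 0, with a median log2 fold change of 0.08. No ribosomal protein gene passed an adjusted p of 0.05 by edgeR, where 0% of all genes passed, while at an unadjusted p below 0.05 10 were higher (4.69% of all genes) and 0 lower (4.47%). These 10 were Rplp0, Rplp1, Rplp2, Rps6, Rps10, Rps16, Rpl8, Rpl26, Rpl27 and Rpl36, so that all 3 stalk genes were among them.

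In Rplp2 and Rps10 the 6 stigmasterol libraries all lay above the 6 vehicle libraries (0.343% of all genes), and 0 genes showed the opposite order (0.218%). The averaged log2 fold change of Rplp2 was 0.38 ± 0.07 (SE, n = 6 per treatment, edgeR adjusted p = 0.139) and that of Rps10 was 0.39 ± 0.10 (SE, edgeR adjusted p = 0.254). For Rps16 it was 0.34 ± 0.08 (SE, edgeR adjusted p = 0.235), for Rps6 0.58 ± 0.14 (SE, edgeR adjusted p = 0.249), for Rplp1 0.29 ± 0.08 (SE, edgeR adjusted p = 0.334) and for Rpl27 0.45 ± 0.13 (SE, edgeR adjusted p = 0.365). The calls depended on the test. By the DESeq2 Wald test, Rplp2 (adjusted p = 0.0011), Rps16 (0.0239) and Rps10 (0.0439) passed in the averaged comparison, where 0.544% of all genes passed, and Rplp2 (0.0134) and Rps16 (0.0138) passed at 1 h, where 0.114% of all genes did. At 6 h no ribosomal protein gene passed by DESeq2, where 0.0218% of all genes did.

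**Figure D4:**
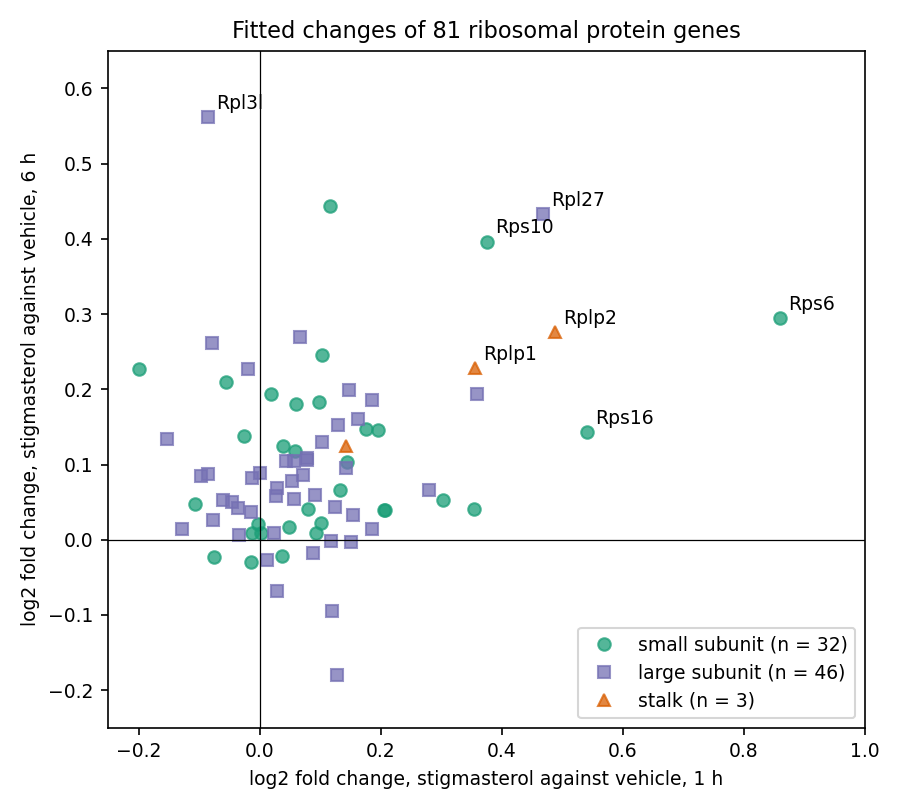
Fitted log2 fold change of stigmasterol against vehicle at 1 h (horizontal) and at 6 h (vertical) for 81 ribosomal protein genes, marked by subunit. Each point is 1 gene, and 51 lie above 0 at both times and 2 below 0 at both. Rps6, Rplp2, Rps10, Rpl27 and Rplp1 lie to the upper right. Rps16 lies to the right, with a smaller value at 6 h than at 1 h.

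The difference between the effects at 6 h and at 1 h was tested as an interaction. No ribosomal protein gene passed an adjusted p of 0.05 by edgeR (0% of all genes passed), 43 were above 0 and 38 below, against 49% of all genes above 0, and the median was 0.02 on the log2 scale. At an unadjusted p below 0.05, 1 gene was lower (1.67% of all genes) and 0 were higher (0.642%). That gene was Rps16, with a difference of -0.40 ± 0.16 (SE, edgeR adjusted p = 1.00). Its values at 6 h were 14.9, 20.5 and 17.0 CPM after stigmasterol and 16.4, 15.4 and 15.6 CPM after vehicle, which overlap. The next smallest p belonged to Rps6 (-0.57 ± 0.28), Rpl36a (-0.31 ± 0.19) and Rps4x (0.15 ± 0.10, log2 difference with SE).

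Between the times, ribosomal protein genes were on the lower side at 6 h in both treatments. The time groups share their libraries with the treatment comparisons. In vehicle mice 63 of 81 genes had a log2 fold change of 6 h against 1 h below 0 and 18 above, against 52% of all genes above 0, and the median was -0.09. No ribosomal protein gene passed the edgeR test at an adjusted p of 0.05, although 0.675% of all genes did. At an unadjusted p below 0.05, 14 were lower (10.7% of all genes) and 0 were higher (10.6%). The 3 libraries at 6 h lay below those at 1 h in 15 genes (17.4% of all genes) and above them in 0 (15.9%). The count of genes that lay lower without overlap was thus near the background. Other settings made calls: Rps27l and Rpl17 passed an adjusted p of 0.05 by DESeq2 (6.17% of all genes passed), Rpl15 and Rps27l passed with only the vehicle groups in the edgeR fit (9.94%), and Rps27l and Rpl17 passed an adjusted p of 0.1 by edgeR (5.24%).

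Rps27l, a paralog of Rps27 that is a target of p53, had the smallest p. It stood at 5.02, 4.04 and 4.82 CPM at 6 h and at 6.64, 6.59 and 5.91 CPM at 1 h in vehicle mice, without overlap, and its log2 fold change was -0.46 ± 0.13 (SE, edgeR adjusted p = 0.0938). Rpl17, a protein near the exit of the large subunit's peptide tunnel, stood at 8.82, 7.17 and 7.00 CPM against 11.99, 9.58 and 9.51 CPM. Its groups were apart as well, with a log2 fold change of -0.43 ± 0.13 (SE, edgeR adjusted p = 0.0970). Rpl22 (-0.19 ± 0.07) and Rpl7l1 (-0.20 ± 0.07, log2 fold change with SE) followed, both with groups apart. All 3 stalk genes were above 0 in this comparison, between 0.03 and 0.11 on the log2 scale.

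In stigmasterol mice 69 genes were below 0 and 12 above, against 46.7% of all genes above 0, with a median of -0.10. No ribosomal protein gene passed an adjusted p of 0.05 by edgeR, and 1 of all genes did (0.00544%). At an unadjusted p below 0.05, 6 were lower (4.59% of all genes) and 1, Rpl3l, was higher (5.41%). The libraries at 6 h were below those at 1 h in 18 genes (6.61% of all genes) and above in 1 (6.91%). Rpl7l1 stood at 31.8, 29.6 and 32.0 CPM at 6 h and at 35.9, 34.4 and 38.0 CPM at 1 h, with no overlap and a log2 fold change of -0.21 ± 0.07 (SE, edgeR adjusted p = 0.374). Rpl36a (-0.39 ± 0.13) and Rpl23 (-0.25 ± 0.10, log2 fold change with SE) were also apart. Rpl3l stood at 0.279, 0.454 and 0.730 CPM at 6 h against 0.237, 0.208 and 0.253 CPM at 1 h, a log2 fold change of 1.06 ± 0.39 (SE, edgeR adjusted p = 0.419) that rests on 5 to 24 counts per library over the study.

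In vehicle mice, leaving out vehicle replicate 4 at 1 h brought the median to -0.04, with 48 genes below 0, and leaving out vehicle replicate 21 at 6 h brought it to -0.05, with 50 below 0. It was -0.16 without vehicle replicate 5 at 1 h and also -0.16 without vehicle replicate 12 at 6 h. Without vehicle replicates 4 and 9 at 1 h together it was -0.02, with 43 genes below 0 and 38 above. With upper-quartile scaling it was -0.05 in vehicle mice, with 5 genes lower at an unadjusted p below 0.05 (7.36% of all genes), and -0.06 in stigmasterol mice, with 2 lower (2.31%), while the medians of all genes were 0.05 and 0.03. In stigmasterol mice, the removal of the GC content and length trends brought the median to -0.05, with 55 below 0. Marker lists of other cell types also leaned to one side between the times. In vehicle mice all 15 choroid plexus markers had log2 fold changes of 6 h against 1 h above 0 (median 1.18), with summed levels of 1329 to 6312 CPM at 6 h and 228 to 4416 CPM at 1 h. Of 13 meningeal markers 12 were above 0, with sums of 236 to 358 CPM at 6 h and 181 to 205 CPM at 1 h, and of 11 dentate granule markers 9 were below 0, with sums of 1003 to 1043 CPM and 1014 to 1238 CPM. In stigmasterol mice all 15 plexus markers were below 0, with 780.5 to 6334 CPM at 6 h and 3044 to 7228 CPM at 1 h, as were all 12 striatal markers, with 293 to 361 CPM and 316 to 688 CPM, and 13 of 15 oligodendrocyte markers, with 10580 to 11970 CPM and 10130 to 16640 CPM. The highest striatal and oligodendrocyte sums at 1 h were both those of stigmasterol replicate 8. With plexus content as a covariate the median of the ribosomal protein genes was -0.06 in vehicle mice, with 60 of 81 genes below 0 and 3 lower at an unadjusted p below 0.05 (6.89% of all genes), and -0.12 in stigmasterol mice; the part of the other cell types was not tested. The hour of day at which tissue was taken was not given in the sources used here and cannot be told apart from the time after injection.

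The variation that ribosomal protein genes shared between libraries was described with principal components. The first principal component over the 81 genes held 35.9% of the variance, and 77 of 81 genes had loadings of the same sign. The largest loadings were those of Rpl39 (0.269) and Rpl23a (0.261), the latter with a mean count of only 20.9. No such values are given for other genes, and whether the pattern is particular to ribosomal protein genes was not tested. Library scores ranged from 1.28 in vehicle replicate 4 at 1 h, the highest, to -2.25 in vehicle replicate 21 at 6 h, the lowest, so that both ends were vehicle mice. In vehicle replicate 21 at 6 h, 3 of the 81 genes were above their own mean over all libraries, and in vehicle replicate 4 at 1 h 66 were. The 3 stigmasterol libraries at 1 h had 70, 67 and 58 genes above their means, against 66, 23 and 35 in the vehicle libraries at 1 h. At 6 h the stigmasterol libraries had 16, 49 and 37 and the vehicle libraries 42, 19 and 3.

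**Figure D5:**
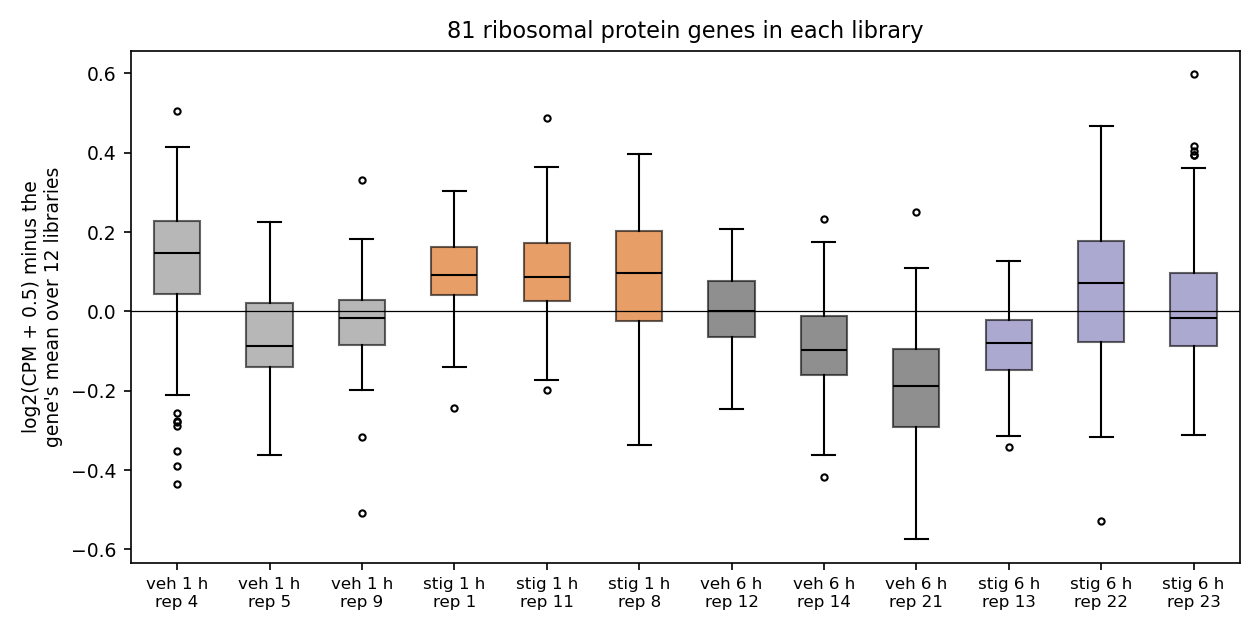
Deviation of each of 81 ribosomal protein genes from its own mean over 12 libraries, as log2(CPM + 0.5), in every library (boxes from the first to the last quartile with the median as a line, whiskers to the last value within 1.5 box lengths, points beyond). Vehicle replicate 4 at 1 h sits as high as the stigmasterol libraries at 1 h, and vehicle replicate 21 at 6 h is the lowest.

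Other genes of the ribosome and its pathways were read in the same fits, and none of those described here passed an adjusted p of 0.05 by edgeR in a comparison of stigmasterol with vehicle. The 4 tested genes of cytosolic ribosomal proteins outside the naming rule included Fau, whose product is made as a fusion with a ubiquitin-like protein, Rack1, a scaffold on the small subunit, and Rpl36al, a paralog of Rpl36a. All 4 were above 0 at 1 h and at 6 h, with medians of 0.07 and 0.16 on the log2 scale. The largest averaged value was that of Fau, 0.29 ± 0.11 (log2 fold change with SE, edgeR adjusted p = 0.465).

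Of 22 other genes known for TOP messages, translation factors among them, 10 were above 0 at 1 h and 18 at 6 h, with medians of -0.01 and 0.05. Tpt1, a translationally controlled tumor protein, had a log2 fold change of 0.67 ± 0.12 at 1 h (SE, edgeR adjusted p = 0.441) and of 0.53 ± 0.09 averaged over times (SE, edgeR adjusted p = 0.0802), with all 6 stigmasterol libraries above all 6 vehicle libraries. Vim, an intermediate filament protein, had 0.40 ± 0.15 at 1 h (SE, edgeR adjusted p = 0.649).

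The 38 initiation factors had 16 genes above 0 at 1 h and 30 at 6 h, with medians of -0.01 and 0.06. Eif4a3, a helicase of the exon junction complex, had a log2 fold change of 0.11 ± 0.07 and Eif4b, a cofactor of the cap-binding complex's helicase, of -0.09 ± 0.06 at 1 h (SE). The 50 tested ribosome biogenesis genes, which process ribosomal RNA and assemble subunits, had 23 and 25 above 0, with medians of -0.0047 and 0.0014. Pno1, a small subunit assembly factor, had 0.12 ± 0.08 at 1 h and 0.11 ± 0.06 averaged (log2 fold change with SE). The 21 genes of the mTORC1 pathway had 10 and 11 above 0, and in this list Akt1s1, an mTORC1 inhibitor, had the smallest p at 1 h, with 0.53 ± 0.15 (log2 fold change with SE, edgeR adjusted p = 0.649).

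Of 12 host genes of small nucleolar RNAs, 7 were above 0 at each time, with medians of 0.07 and 0.01, and Snhg20 had 0.50 ± 0.12 at 1 h (log2 fold change with SE, edgeR adjusted p = 0.555). The mitochondrial ribosomal proteins, which build a separate ribosome inside mitochondria, had 50 of 78 genes above 0 at 1 h and 64 at 6 h, with medians of 0.04 and 0.07. At an unadjusted p below 0.05, 9 of them were higher at 1 h (4.97% of all genes) and 7 at 6 h (1.64%), and 0 were lower at either time (2.55% and 2.46% of all genes). Mrpl52 had 0.57 ± 0.13 at 1 h (log2 fold change with SE, edgeR adjusted p = 0.575) and 0.51 ± 0.09 averaged (SE, edgeR adjusted p = 0.139). Between 6 h and 1 h in vehicle mice, 68 of 78 mitochondrial ribosomal genes, 35 of 38 initiation factors and 41 of 50 biogenesis genes were below 0, with medians of -0.14, -0.15 and -0.13, beside -0.09 for the cytosolic ribosomal protein genes and 0.01 for all genes. In stigmasterol mice 70, 33 and 47 genes of these 3 lists were below 0, with medians of -0.13, -0.08 and -0.10. The cytosolic ribosomal protein genes had -0.10 there and all genes -0.01.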

How the data were processed

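The authors deposited a table of raw counts per gene and a table of normalized signal, in which each library's counts are divided by 1 size factor, as its values show. The tools named in the submitters' processing notes are STAR 2.4.2a and cutadapt, HTSeq 0.6.1p1, the packages DESeq and DESeq2 (version 1.10.1), and bcl2fastq 2.17.1.14, with build GRCm38. Their roles and order, the treatment of multiply mapping reads and the strand setting were not given in the sources used here. Per the labels' protocols, libraries were TruSeq mRNA from RNA with a RIN of at least 7. Total counts were 27613253 to 42043875 per library.

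Counts of all 12 libraries were fitted with edgeR 4.0.16 in R 4.3.3 (filterByExpr, TMM, quasi-likelihood, 1 coefficient per group), and p-values were adjusted by Benjamini and Hochberg over 18382 genes with a threshold of 0.05. Alternatives used DESeq2 1.42.0 and limma 3.58.1, other scalings and filters, covariates and left-out libraries. Limma was used with voom, with a trend on the normalized signal, and with a trend after the GC content and length trends were removed. Annotation and shared 50-base windows came from GENCODE M21. Named genes were the 6 with the smallest p in each of the 3 treatment comparisons and 4 in each other one, the 5 highest and lowest by level, the 3 most and least variable, a fixed set of well-known members and up to 2 of each list; genes whose groups did not overlap were added after their values were seen, and some genes are not reported here. The members and lists were chosen with earlier results of these data known. The procedure was tested on simulated data.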

Additional observations from a re-analysis of the deposited data

How the results depend on the processing

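The median log2 fold change of the ribosomal protein genes kept its sign in the comparisons at 1 h, at 6 h, averaged and between times under every alternative run, though between times in vehicle mice it shrank to -0.02 without vehicle replicates 4 and 9 at 1 h, -0.05 with upper-quartile scaling and -0.06 with plexus content as a covariate, and in stigmasterol mice to -0.06 with upper-quartile scaling. At 1 h it was 0.18 without vehicle replicates 4 and 9 together, with the lone vehicle library assumed to vary like the other groups, and the difference of the effects then had a median of -0.088. That difference also turned negative with plexus content as a covariate (-0.04). Leaving out 1 library gave medians of 0.02 to 0.13 at 1 h, 0.04 to 0.15 at 6 h, 0.06 to 0.11 averaged, -0.05 to 0.08 for the difference of the effects, -0.16 to -0.04 between times in vehicle mice and -0.15 to -0.07 in stigmasterol mice. With GC content and length trends removed it was 0.0015 at 1 h, 0.04 at 6 h and 0.02 averaged.

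Genes past an adjusted p of 0.05 numbered 0 in the reported edgeR test. By the DESeq2 Wald test there were 2 at 1 h (0.114% of all genes), 3 averaged (0.544%) and 2 between times in vehicle mice (6.17%). Between times in vehicle mice 2 passed with only the groups compared in the fit, where 9.94% of all genes did. At an adjusted p of 0.1 by edgeR 2 passed there, where 5.24% of all genes did. Leaving out 1 library gave 0 ribosomal protein genes in each comparison. Of all genes, 0 to 582 then passed between times in vehicle mice, 0 to 26 averaged and 0 to 5 between times in stigmasterol mice. The cause of these differences was not tested. No paired analysis was possible because the replicate numbers of the groups are all different. Low counts limit Rpl3l, Rpl23a, Rpl24 and Rps23, and at 3 mice per group log2 differences near 0.1 lie within the standard error of most of these genes.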
